A study of Mus musculus with 2 samples.

Results

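Transthyretin (Ttr) and the retinol-binding proteins Rbp4 and Rbp7 were followed through single islet cells of wild-type (WT) and ghrelin-knockout (GKO) mice. They were chosen by symbol, and all 3 of the 3 symbols were found in both deposited matrices, which list 27998 genes each. The series holds 1 library per genotype, made from islets of 4 mice pooled by genotype. The mice were WT and homozygous GKO littermates on a C57BL/6N background, 8 weeks old and fed standard chow ad libitum, and the knockout is a germline deletion of the ghrelin gene. Islets were handpicked and dispersed, live single cells were sorted, and transcript 3′ ends were counted in droplets by unique molecular identifiers (UMIs), so that PCR copies count once. In the annotation of the mouse genome build GRCm38, Ttr (ENSMUSG00000061808) lies on chromosome 18 and has 4 exons. Rbp4 (ENSMUSG00000024990) spans chr19:38116629-38125281 on the minus strand, with up to 6 exons. Rbp7 (ENSMUSG00000028996) spans chr4:149449687-149454978 on the minus strand, with 4 exons, and no other annotated gene overlaps any of the 3.

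As background, retinol (vitamin A) circulates bound to RBP4, and RBP4 travels in a complex with transthyretin, which also carries the thyroid hormone thyroxine. The liver is the main source of both proteins in blood, transthyretin is also made by the choroid plexus, and islet endocrine cells are a known site of Ttr expression. RBP7 is a small intracellular retinol-binding protein of the fatty acid–binding protein family, known from adipose tissue and from capillary endothelium. Retinol taken up by cells is stored as esters or oxidized to retinoic acid, which acts through nuclear receptors.

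The WT library held 158067110 UMIs in 7792 barcodes, and the GKO library held 103511757 UMIs in 7289 barcodes. Ghrl, the deleted gene, had 276 counts per 1000000 UMIs (CPM) in WT and 2.71 CPM in GKO. Kept were barcodes that reached 500 genes and whose mitochondrial share did not exceed 10% of UMIs, 7100 in WT and 6346 in GKO. A barcode was put in the class of its leading hormone, among Ins1 plus Ins2, Gcg, Sst and Ppy, when that hormone made up at least 10% of its UMIs. The others went to the class of their highest marker among Plvap (endothelial), Dcn and Rgs5 (stromal), C1qb (macrophage) and Krt19 (ductal) when it had at least 5 UMIs. In WT and GKO, the hormone classes held 2265 and 872 barcodes (insulin), 1048 and 1397 (glucagon), 1414 and 1003 (somatostatin) and 717 and 669 (pancreatic polypeptide, PP). The marker classes held 65 to 644 in a library. Insulin barcodes made up 31.9% of kept barcodes in WT and 13.7% in GKO, and Dcn barcodes 3.93% and 10.1%. Of the marker lists read in each class, every member was at 20 CPM or more in both libraries for endothelial genes in the Plvap class, fibroblast genes in the Dcn class, pericyte genes in the Rgs5 class, macrophage genes in the C1qb class and ductal genes in the Krt19 class. Other lists met this limit too. All 5 acinar markers did in the Rgs5 class of both libraries, summing to 556 CPM in WT and 2273 CPM in GKO. In the WT Rgs5 class all 7 endothelial and all 6 ductal markers did as well. Ambient RNA had not been removed from the counts, no doublets were called, and 18 barcode sequences occurred in both libraries. With 1 library per genotype there was no replicate and no test. All intervals below are exact 95% intervals of counting error alone and leave out how mice and preparations vary, and barcodes of 1 pool are not replicates.

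Each of the 3 genes was highest in a different class, and that class was the same in both genotypes. Ttr was highest in glucagon barcodes, Rbp4 in somatostatin barcodes and Rbp7 in Plvap barcodes. For each gene, the highest class kept its place in both libraries under every alternative processing that was run. Promoter windows are shown for Rbp4 and Rbp7 because these genes had such different class patterns; RefSeq windows of the build GRCm38.p6 matched 2 of the 3 genes, and Ttr is named only. They are written 5′ to 3′ on the gene's strand and end before the transcript start. Capitals mark matches to TATAAA (the TATA box) or to CCGCCC (the GC box GGGCGG read on the other strand).

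Rbp4, chr19:38124829-38124954, minus strand, upstream of the inner of its start sites: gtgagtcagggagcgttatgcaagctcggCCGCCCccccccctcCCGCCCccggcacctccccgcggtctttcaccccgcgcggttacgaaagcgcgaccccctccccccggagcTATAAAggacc
Rbp7, chr4:149454979-149455128, minus strand: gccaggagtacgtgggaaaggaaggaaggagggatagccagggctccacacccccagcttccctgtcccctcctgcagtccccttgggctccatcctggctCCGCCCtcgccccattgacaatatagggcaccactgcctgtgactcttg

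The 300-base windows around these starts were searched on both strands for the TATA box TATAAA, the nuclear receptor half-site AGGTCA and the GC box GGGCGG. The inner Rbp4 window held TATAAA once and GGGCGG 2 times on the reverse strand, the window of the outer Rbp4 start held none of the 3 motifs, and the Rbp7 window held GGGCGG once. AGGTCA was found in none of the windows. Of 32851 promoter windows of the same length, 13.6% held TATAAA, 16.3% held AGGTCA and 35.7% held GGGCGG. The motifs are a description of these letters and were not linked to any count.

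**Figure D1:**
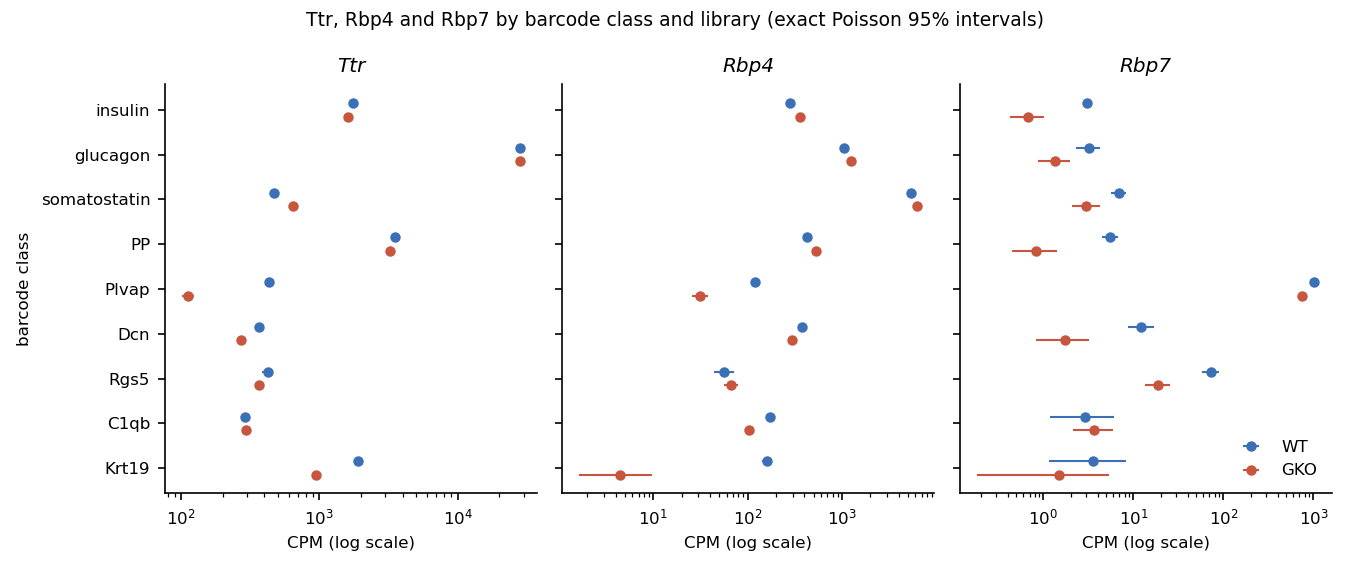
CPM (log axis) of Ttr, Rbp4 and Rbp7, 1 panel each, in 9 barcode classes of the WT (blue) and GKO (red) libraries; points are UMIs summed over a class and bars are exact Poisson 95% intervals. Ttr stands highest in the glucagon class at 28172 and 28036 CPM, Rbp4 in the somatostatin class at 5428 and 6276 CPM, and Rbp7 in the Plvap class at 1012 and 748 CPM.

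Ttr reached 28172 CPM in the glucagon class of WT (95% interval, 28086 to 28259) and 28036 CPM in that of GKO (27960 to 28111), or 2.82% and 2.80% of all UMIs of the class. The PP class came next, with 3536 CPM in WT and 3249 CPM in GKO, 7.97-fold and 8.63-fold below the glucagon class. The insulin class had 1742 CPM in WT and 1608 CPM in GKO. In the somatostatin class Ttr was at 469 CPM in WT and 646 CPM in GKO, 60.1-fold and 43.4-fold below the glucagon class. The order of the hormone classes was thus glucagon, PP, insulin and somatostatin in both libraries, with no overlap between the intervals of neighbours.

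In every glucagon barcode Ttr was detected, and its level was spread widely. The median barcode had 22945 CPM in WT and 23429 CPM in GKO, the 5th percentile was 6136 and 5971 CPM, and the 95th percentile was 69364 and 68087 CPM. The 5th percentile of the glucagon class lay above the 95th percentile of the insulin class, 3949 CPM in WT and 3749 CPM in GKO. It lay below the 95th percentile of the PP class, 10837 CPM in WT and 9156 CPM in GKO. Within the glucagon class, barcodes with 25% to 40% Gcg had 32406 and 32529 CPM of Ttr, against 23790 and 22164 CPM in those with 10% to 25% Gcg. The 26 GKO barcodes with 40% to 60% Gcg had 29561 CPM. Across glucagon barcodes the Spearman rho between Ttr and Gcg was 0.35 in WT (1048 barcodes) and 0.37 in GKO (1397 barcodes) when both were taken over UMIs other than hormones. Over all UMIs it was 0.27 and 0.28. Across insulin barcodes the rho between Ttr and insulin transcripts was 0.36 and 0.37 over UMIs other than hormones, but 0.0071 and 0.091 over all UMIs. Barcodes share their library and the denominator, so these values are descriptive.

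Insulin barcodes had a lower Ttr level that almost all of them shared. Barcodes were thinned to 5000 UMIs each, and those under that depth were left out of all shares after thinning. That left out 143 WT and 114 GKO barcodes of the Plvap class and 111 and 193 of the Rgs5 class. After thinning, 97.9% of insulin barcodes in WT and 96.4% in GKO had a Ttr UMI. So did 97.3% and 98.2% of PP barcodes and 100% of glucagon barcodes in both libraries. In somatostatin barcodes the share was 53.0% in WT and 49.3% in GKO. The share in C1qb barcodes, macrophages by their markers, was 35.4% and 38.3%, and in Plvap and Dcn barcodes it was 26.1% to 32.2%. Median depths before thinning were 37124 and 35811 UMIs in insulin barcodes, 11065 and 10148 in somatostatin barcodes and 10447 and 9009 in C1qb barcodes. Without thinning, 99.9% of insulin barcodes, 76.0% and 70.6% of somatostatin barcodes and 57.6% and 56.8% of C1qb barcodes had a Ttr UMI.

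Most of the insulin-class level remained in barcodes with few glucagon transcripts. In insulin barcodes with under 0.5% Gcg, 2128 in WT and 830 in GKO, Ttr was at 1315 and 1202 CPM. In the 64 WT and 28 GKO insulin barcodes with at least 5% Gcg, it was at 9826 and 9788 CPM. PP barcodes with under 0.5% Gcg kept 2176 CPM in WT and 2342 CPM in GKO. Ttr per 100 Gcg UMIs was 11.3 in WT and 10.8 in GKO in the glucagon class, and 41.2 and 34.4 in the insulin class. PP barcodes led by more Ppy had less Ttr, with 7010 and 6007 CPM at 10% to 25% Ppy and 1468 and 1644 CPM at 40% to 60% Ppy. Insulin transcripts made up most UMIs of the insulin class, and over UMIs without the 5 hormone genes Ttr stood at 4496 CPM (WT) and 3939 CPM (GKO).

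In somatostatin barcodes and in the marker classes other than Krt19, a small share of barcodes carried most Ttr UMIs. The 10% of somatostatin barcodes with the most Ttr held 75.4% of the class's Ttr UMIs in WT and 84.9% in GKO, against 29.3% and 29.0% in the glucagon class, 39.7% and 43.3% in the insulin class and 48.6% and 45.1% in the PP class. In the Plvap, Dcn, Rgs5 and C1qb classes it was 62.8% to 91.7%, and in the Krt19 class 52.1% and 35.1%. Median barcodes held 2 and 1 Ttr UMIs in the somatostatin class, against 294 and 287 in the glucagon class. Low counts alone raise such a share, so these classes cannot be compared on equal terms. In somatostatin barcodes with under 0.5% Gcg, Ttr was at 196 CPM in WT and 171 CPM in GKO. In Plvap barcodes with under 0.5% Gcg it was at 70.2 CPM in both libraries, in Dcn barcodes at 63.3 and 71.1 CPM, and in C1qb barcodes at 71.0 and 82.0 CPM. The part of free RNA in these levels was not tested.

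**Figure D2:**
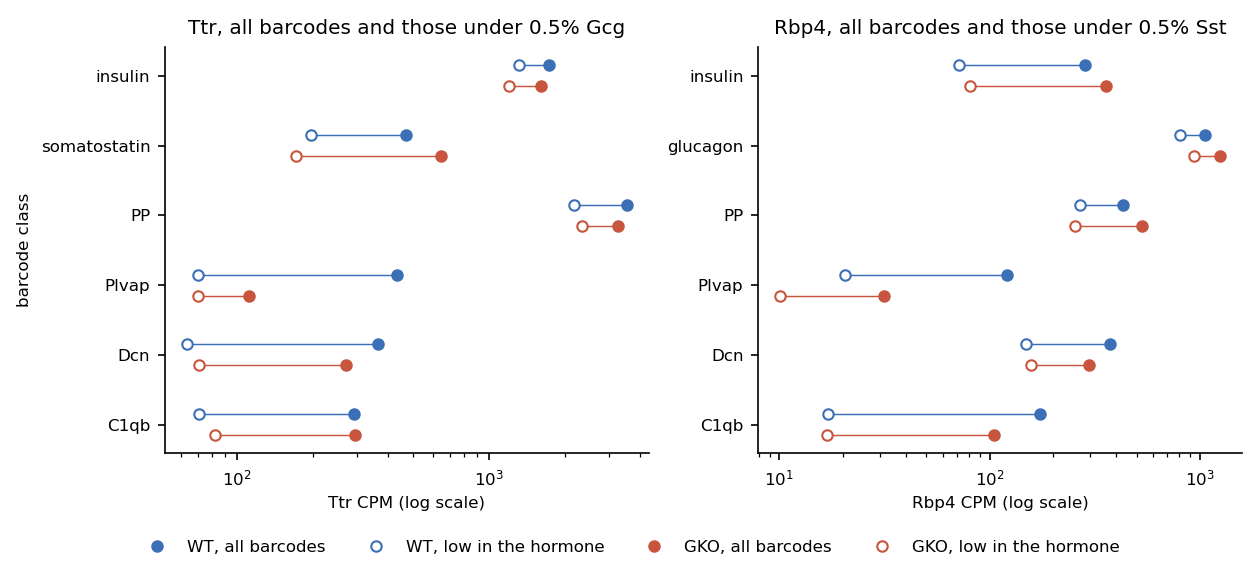
Ttr (left) and Rbp4 (right) in CPM (log axis) by class in WT (blue) and GKO (red); filled points are all barcodes of a class and open points are barcodes with under 0.5% of UMIs from Gcg (for Ttr) or Sst (for Rbp4). Ttr in the insulin class moves little, from 1742 to 1315 CPM in WT, whereas in the Plvap class it moves from 432 to 70.2 CPM, and Rbp4 in the insulin class moves from 283 to 71.3 CPM.

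The Krt19 class, ductal by its markers, stood apart from the other marker classes in its Ttr level. It had 1906 CPM in the 65 WT barcodes and 944 CPM in the 80 GKO barcodes, with median barcodes at 1028 and 606 CPM. After thinning, 92.2% and 86.1% of Krt19 barcodes had a Ttr UMI. Its Ttr per 100 Gcg UMIs was 44.4 in WT and 197 in GKO, above the 11.3 and 10.8 of the glucagon class. So were the Rgs5 class at 31.1 and 60.2, the Dcn class at 13.3 and 34.1 and the Plvap class at 17.9 and 13.1. The C1qb class was at 10.1 and 12.8. The 5 acinar markers read as a check summed to 3502 CPM in the WT Krt19 class and 70.3 CPM in the GKO Krt19 class, with all 5 detected in both, and the 5 hepatocyte markers to 60.1 and 12.7 CPM, with 3 and 2 detected. Of the listed related genes, Rbp2, Fabp1 and Fabp2 were at 213, 204 and 82.0 CPM in the WT Krt19 class and had 0 UMIs in GKO. The make-up of this class thus differed between the libraries. The part of these genes' source or of acinar transcripts in the Krt19 difference was not tested.

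Rbp4 was at 5428 CPM in the somatostatin class of WT (5392 to 5463) and 6276 CPM in that of GKO (6230 to 6323). The glucagon class came next, with 1063 and 1248 CPM, 5.11-fold and 5.03-fold lower. The PP class had 432 CPM in WT and 529 CPM in GKO, and the insulin class 283 and 359 CPM. All somatostatin barcodes had an Rbp4 UMI, and the median barcode had 4946 CPM in WT and 5767 CPM in GKO, between a 5th percentile of 1711 and 1982 CPM and a 95th percentile of 11055 and 12983 CPM. Rbp4 was nearly level across the Sst content of the class, with 5473 and 6266 CPM at 10% to 25% Sst and 4909 and 6370 CPM at 25% to 40% Sst. The Spearman rho between Rbp4 and Sst over UMIs other than hormones was 0.12 in WT (1414 barcodes) and 0.13 in GKO (1003 barcodes), a weak relation that is given as a description. Over all UMIs it was 0.037 and 0.042.

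Glucagon barcodes had Rbp4 also where they held little Sst. After thinning, 93.2% of them in WT and 95.9% in GKO had an Rbp4 UMI, and the 960 WT and 1295 GKO glucagon barcodes with under 0.5% Sst were at 801 and 942 CPM. PP barcodes with under 0.5% Sst were at 271 and 254 CPM, and 67.0% and 67.3% of all PP barcodes had an Rbp4 UMI after thinning. In C1qb barcodes that share was 11.8% and 7.9%, and in Plvap barcodes 9.8% and 5.7%. Rbp4 per 100 Sst UMIs was 2.93 in WT and 3.38 in GKO in the somatostatin class, and 11.2 and 14.0 in the glucagon class.

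In insulin barcodes, by contrast, most Rbp4 UMIs sat in barcodes that also held Sst. The median insulin barcode had 25.6 CPM in WT and 20.9 CPM in GKO, and the top 10% of barcodes held 75.5% and 75.8% of the UMIs. Insulin barcodes with under 0.5% Sst were at 71.3 and 80.5 CPM, those with 2% to 5% Sst at 1389 and 1679 CPM, and those with at least 5% Sst at 2188 and 2702 CPM. Where insulin made up at least 60% of UMIs, Rbp4 was at 48.3 CPM in WT and 32.7 CPM in GKO, against 1161 and 1565 CPM where it made up 25% to 40%.

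The Dcn class was the stromal class with Rbp4. It had 376 CPM in WT and 298 CPM in GKO, and 149 and 158 CPM in its barcodes with under 0.5% Sst. The Plvap class under the same limit had 20.5 and 10.1 CPM, and the C1qb class 17.1 and 16.8 CPM. After thinning, 44.5% of Dcn barcodes in WT and 34.3% in GKO had an Rbp4 UMI. In the Rgs5 class Rbp4 was at 56.7 and 66.7 CPM, and only 18 of 200 barcodes in WT and 17 of 373 in GKO had an Rbp4 UMI.

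Ttr and Rbp4, the 2 partners of the retinol carrier complex in blood, were found together in the highest share of barcodes in the glucagon class. After thinning, 93.2% of glucagon barcodes in WT and 95.9% in GKO had UMIs of both genes, against 65.4% and 66.3% of PP barcodes, 53.0% and 49.3% of somatostatin barcodes and 28.9% and 29.2% of insulin barcodes. In the Dcn class the share was 13.4% and 10.2%, and in the Plvap class 4.0% and 1.3%. All thinned glucagon barcodes had Ttr and all thinned somatostatin barcodes had Rbp4, so there the joint share is that of the other gene alone. Of insulin barcodes with Ttr, 29.5% in WT and 30.2% in GKO had Rbp4. Of those without Ttr, 47.9% of 48 in WT and 25.8% of 31 in GKO did.

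**Figure D3:**
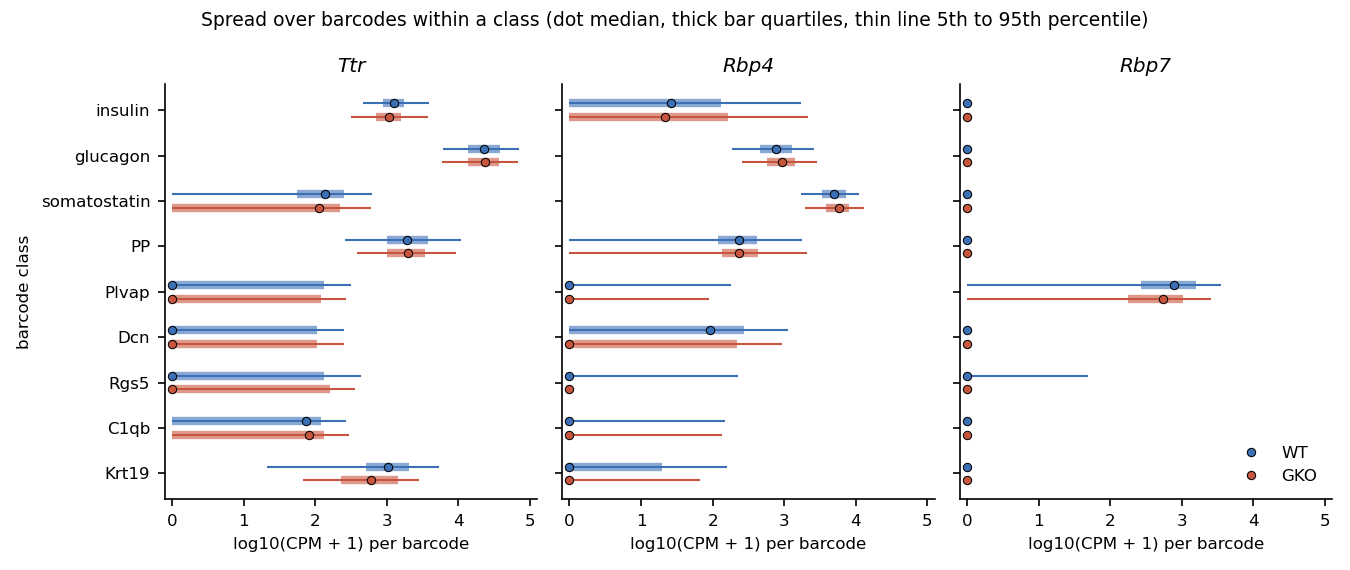
log10(CPM + 1) per barcode of Ttr, Rbp4 and Rbp7 in 9 classes of WT (blue) and GKO (red); dots are medians, thick bars run from the 25th to the 75th percentile and thin lines from the 5th to the 95th. The Ttr quartiles of glucagon barcodes and the Rbp4 quartiles of somatostatin barcodes stand apart from all other classes, and the Rbp7 median is above 0 in the Plvap class only.

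Rbp7 was at 1012 CPM in the Plvap class of WT (984 to 1041) and 748 CPM in that of GKO (720 to 777). After thinning, 83.9% of Plvap barcodes in WT and 79.1% in GKO had an Rbp7 UMI, and without thinning 87.9% and 81.9% did. The median Plvap barcode had 771 CPM in WT and 547 CPM in GKO, and the 95th percentile was 3589 and 2575 CPM. The Rgs5 class came next, with 72.1 and 18.9 CPM, and 5.5% of its barcodes in WT and 2.1% in GKO had an Rbp7 UMI. The 7 endothelial markers summed to 1914 CPM in the WT Rgs5 class and 1197 CPM in the GKO Rgs5 class, against 17407 and 17789 CPM in the Plvap class. All other classes were at 0.67 to 12.2 CPM, and the intervals of most neighbours among them overlapped. When barcodes with signs of more than 1 class were left out, the Plvap class stood 268-fold (WT) and 488-fold (GKO) above the next. The next class was then Krt19 in WT and Dcn in GKO. With all barcodes these held only 5 and 10 Rbp7 UMIs, so the folds rest on few counts.

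Plvap barcodes with and without Rbp7 differed in genes of vessel types. Of thinned Plvap barcodes, 360 in WT had an Rbp7 UMI and 69 had none, and in GKO the numbers were 250 and 66. Venous genes summed to 27.8 CPM with Rbp7 and 339 CPM without it in WT (log2 ratio, −3.61; 95% interval, −4.12 to −3.12), and to 32.0 and 136 CPM in GKO (−2.09; −2.74 to −1.44). Vwf, the von Willebrand factor gene, was at 5.56 CPM with and 142 CPM without Rbp7 in WT, and at 5.60 and 66.7 CPM in GKO. Nr2f2, a transcription factor of venous identity, was at 20.6 and 55.1 CPM in WT and at 23.2 and 48.5 CPM in GKO.

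Capillary genes were on the other side. Their sum was higher with Rbp7 by 0.61 (log2; 0.56 to 0.66) in WT and by 0.53 (0.48 to 0.58) in GKO. Car4, a membrane-bound carbonic anhydrase, was at 431 CPM with and 69.6 CPM without Rbp7 in WT, and at 458 and 93.9 CPM in GKO. Kdr, a receptor for vascular endothelial growth factor, and Esm1, a proteoglycan of the endothelium, were also higher with Rbp7 in both libraries, at log2 ratios of 0.37 to 0.75. Cd36, a fatty acid transporter, and Gpihbp1, which anchors lipoprotein lipase, did not follow, with log2 ratios of −0.49 and −0.09 in WT and −1.28 and 0.18 in GKO. The sum of arterial genes differed by 0.08 (−0.13 to 0.29) in WT and by 0.52 (0.29 to 0.77) in GKO. Lymphatic genes summed to at most 14.5 CPM on either side. Plvap itself is in the capillary list and was used to choose the class.

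**Figure D4:**
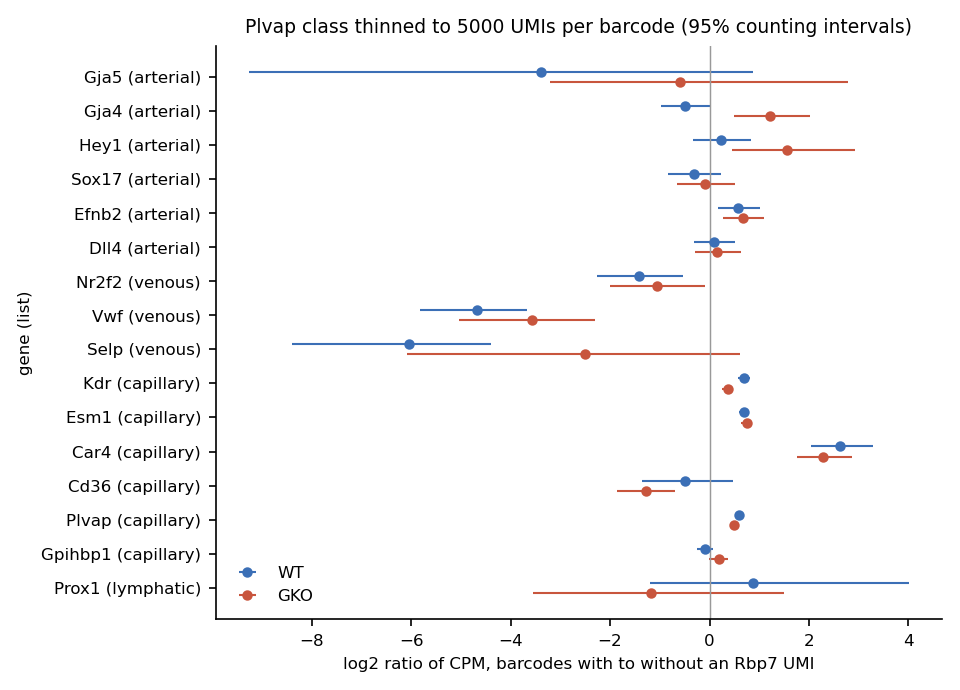
log2 ratio of CPM between Plvap barcodes with and without an Rbp7 UMI, for vessel-type genes in WT (blue) and GKO (red). Only barcodes with at least 5000 UMIs were used, each thinned to 5000 UMIs. Bars are exact 95% counting intervals, and genes at 0 UMIs on a side are left out. Vwf stands far to the left at −4.68 and −3.57, and Car4 to the right at 2.63 and 2.28.

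The comparison of genotypes asked whether ghrelin deletion went with other levels of these genes in the same class. In the classes where each gene was highest, the GKO to WT ratio stayed within 1.5-fold. Single-class barcodes, used as an alternative here, held under 5% of a second hormone and under 5 UMIs of each class marker, or, in marker classes, under 5% hormone transcripts and no other class marker at 5 UMIs. For Ttr in the glucagon class the log2 ratio was −0.0070 (−0.013 to −0.0011). For Rbp4 in the somatostatin class it was 0.21 (0.20 to 0.22), and for Rbp7 in the Plvap class it was −0.44 (−0.50 to −0.37). The medians of all genes compared were 0.05 in the glucagon class, 0.04 in the somatostatin class and 0.05 in the Plvap class. The Rbp7 ratio in the Plvap class lay between −0.50 and −0.38 under all 12 alternatives, and 4.07% of the genes compared in that class had a lower ratio. Its Rbp7 to Plvap ratio was 17.3 UMIs per 100 in WT and 12.4 in GKO.

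Summed over a class, Rbp4 was higher in GKO than in WT in each of the 4 hormone classes, by 0.21 (log2) in the somatostatin class, 0.23 (0.20 to 0.26) in the glucagon class, 0.29 (0.25 to 0.34) in the PP class and 0.34 (0.31 to 0.37) in the insulin class. The median barcode was also higher in GKO in the somatostatin and glucagon classes. However, the median insulin barcode was lower in GKO, at 25.6 CPM in WT and 20.9 CPM in GKO. The median PP barcode was at 235 and 232 CPM. The class medians of all genes lay at 0.04 to 0.10. With single-class barcodes the ratio was 0.09 in the insulin class and 0.11 in the PP class. In barcodes with under 0.5% Sst it was 0.18 in the insulin class and −0.090 in the PP class. Ttr in the insulin and PP classes had log2 ratios of −0.12 (−0.13 to −0.10) and −0.12 (−0.14 to −0.10). In the somatostatin class its ratio was 0.46 (0.42 to 0.51), with single-class barcodes it was 0.79, and in the barcodes of that class with under 0.5% Gcg it was −0.20.

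Ratios past 1.5-fold were found in the marker classes for Ttr and Rbp4, and all were lower in GKO. Ttr was past it in 2 of 9 classes, Plvap and Krt19, and Rbp4 in 3 of 9, Plvap, C1qb and Krt19, and with all barcodes of a class neither gene was past it on the higher side. With single-class barcodes, Rbp4 in the Rgs5 class had a ratio of 1.02, and Ttr had ratios of 1.96 in the Dcn class and 2.91 in the Rgs5 class. With barcodes thinned to 5000 UMIs, the Rbp4 ratio in the Rgs5 class was 0.92, and with a leading hormone of at least 25% the Ttr ratio in that class was 0.60. Over the alternatives, the Ttr ratio ran from −0.60 to 1.96 in the Dcn class and from −1.29 to 2.91 in the Rgs5 class. In the C1qb class it ran from −0.96 to 0.38. With all barcodes, the GKO barcode with the most Ttr held 820 of the 1560 UMIs in the Dcn class and 579 of the 778 in the Rgs5 class. Among all genes compared, those with a ratio at least 1.5-fold lower made up 2.09% in the Plvap class, 4.33% in the C1qb class and 5.33% in the Krt19 class. In the Plvap class the log2 ratio was −1.95 (−2.11 to −1.79) for Ttr and −1.94 (−2.25 to −1.65) for Rbp4. Hormone transcripts made up 1.19% of UMIs of the Plvap class in WT and 0.68% in GKO, and the Ttr ratio in its barcodes with under 0.5% Gcg was 0.0010. The Rbp4 ratio in its barcodes with under 0.5% Sst was −1.02, from 20.5 and 10.1 CPM. In the C1qb class Rbp4 had a ratio of −0.74 (−0.93 to −0.55), and 95.9% and 95.5% of its UMIs were in the top 10% of barcodes; in barcodes with under 0.5% Sst the ratio was −0.020. In the Krt19 class the ratio was −1.01 (−1.11 to −0.92) for Ttr, or −0.51 in barcodes with under 0.5% Gcg, and Rbp4 had 228 UMIs in WT and 6 in GKO, a ratio of −5.17 (−6.63 to −4.02), too few for it to be among the genes behind the 5.33%. There, 94.7% of the WT Rbp4 UMIs sat in the 10% of barcodes with the most of it, and the ratio was −2.27 with single-class barcodes. The WT barcode with the most Rbp4 held 136 of the 228 UMIs. Sst in the Krt19 class was at 3892 CPM in WT and 135 CPM in GKO, and Rbp4 per 100 Sst UMIs was 4.14 and 3.33. The part of Sst-rich barcodes or free RNA in this difference was not tested.

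Outside the Plvap class, Rbp7 was past 1.5-fold on the lower side in 7 of the other 8 classes, from low counts. In 6 of these 7 it had too few counts to be among the genes behind the background shares (at least 20 UMIs in each library and 20 CPM in 1), the Rgs5 class being the exception, so the shares are not the rate for counts this low. Background shares of genes at least 1.5-fold lower were 0.867% in the insulin class, 1.14% in the glucagon class, 0.890% in the somatostatin class and 0.800% in the PP class. They were 4.23% in the Dcn class and 7.13% in the Rgs5 class. The insulin class had 274 Rbp7 UMIs in WT and 22 in GKO, the PP class 95 and 13, and the Rgs5 class 84 and 40. In the Krt19 class 5 and 2 UMIs gave a log2 ratio of −1.24 with an interval of −4.63 to 1.37. Plvap UMIs in the hormone classes differed in the same direction, with 17.8 CPM in WT and 8.17 CPM in GKO in the insulin class. Per 100 Plvap UMIs, Rbp7 was at 17.3 in WT and 8.21 in GKO in the insulin class. Values were 27.0 and 10.7 in the PP class, 12.3 and 9.92 in the glucagon class and 19.5 and 19.0 in the somatostatin class. The part of endothelial transcripts in these differences was not tested.

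**Figure D5:**
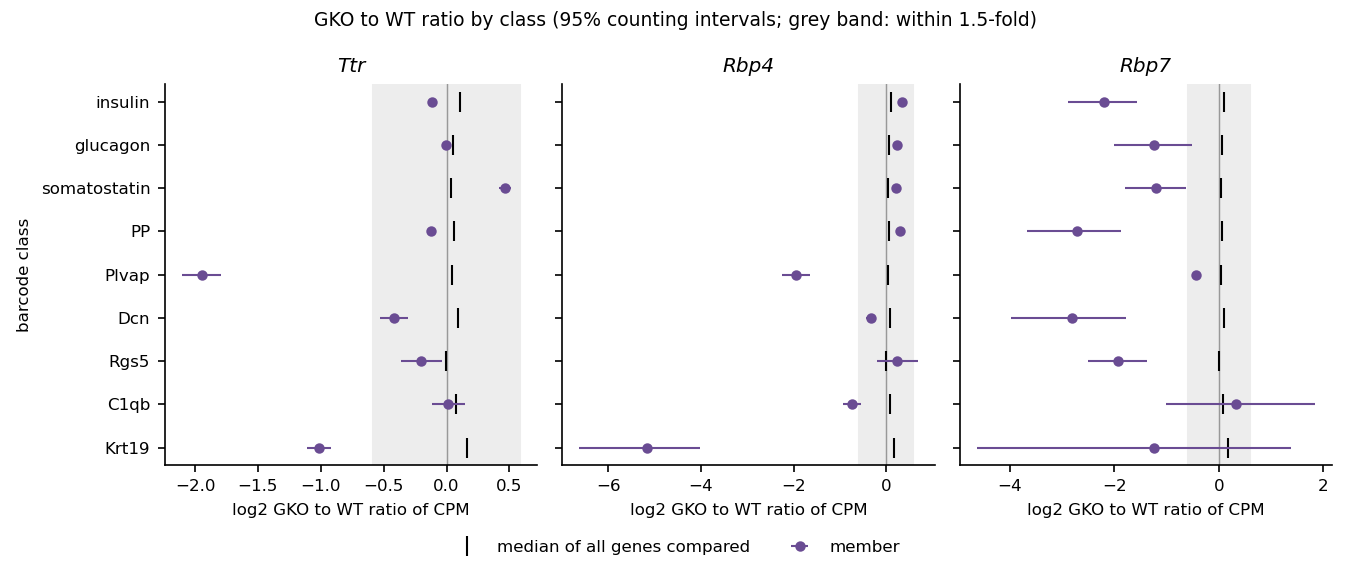
log2 GKO to WT ratio of CPM for Ttr, Rbp4 and Rbp7 in 9 classes, with exact 95% counting intervals; the grey band is within 1.5-fold and black ticks are the median of all genes compared in a class. The 4 hormone classes lie inside the band for Ttr and Rbp4, and Ttr and Rbp4 in the Plvap class lie to its left at −1.95 and −1.94.

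Genes whose levels over the 18 class and library sums were most like those of the members were ranked by Pearson's r of log2(CPM + 1) among 5505 genes. For Ttr the 5 highest were Tmsb15l (0.96), Lrpprc (0.94), Tmsb15b1 (0.93), Tmsb15b2 (0.92) and Gcg (0.91), the last a class gene. The 3 Tmsb15 genes are near-identical copies among which counting may split reads, so their separate values are uncertain. For Rbp4 they were Sst (0.96, a class gene), Unc5c (0.96), Rgs9 (0.95), Pcdh15 (0.95) and AW551984 (0.95). Rgs9 regulates G protein signalling, Unc5c is a netrin receptor and Pcdh15 is a protocadherin. For Rbp7 they were the endothelial transcription factor Sox18 (0.98), Ushbp1 (0.98), She (0.98), Egfl7 (0.98), an endothelial secreted factor, and Gimap5 (0.98). The points share 2 libraries, and the values are descriptive.

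Genes that handle retinoids, thyroid hormone and fatty acids gave the setting of the 3 members. Stra6, a receptor for RBP4, was at no more than 3.3 CPM in any class. The related Stra6l was highest in the Krt19 class, at 19.1 CPM in WT and 21.7 CPM in GKO. Aldh1a1, which oxidizes retinal to retinoic acid, was highest in the Dcn class, at 129 CPM in WT and 170 CPM in GKO (log2 ratio of GKO to WT, 0.40; 0.23 to 0.58). Dhrs3, which reduces retinal back to retinol, was highest in the Plvap class, at 169 and 218 CPM (0.37; 0.23 to 0.51). Of the 23 retinoid enzymes, 3 in the Plvap class, 6 in the Dcn class, 4 in the Rgs5 class and 4 in the Krt19 class had enough counts to be compared. In each of these classes 1 of them was past 1.5-fold on the higher side, where 2.44%, 5.81%, 4.37% and 15.0% of all genes compared were. In the Krt19 class 1 was past it on the lower side, against 5.33% of all genes. Of the 6 retinoid receptors, 3 were compared in the Krt19 class, where Rarg was past 1.5-fold on the higher side, and 4 in the Rgs5 class, where Rxra was past it on the lower side, against 7.13% of all genes.

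Among thyroid hormone genes, Slc16a10, a thyroid hormone and amino acid transporter, was highest in the glucagon class at 150 and 173 CPM (log2 ratio of GKO to WT, 0.21; 0.13 to 0.28). Thra, the thyroid hormone receptor α gene, was highest in the Rgs5 class at 219 and 273 CPM (0.32; 0.10 to 0.54). Dio2, an enzyme that activates thyroid hormone, was lower in the Dcn class, at 26.4 and 7.83 CPM. Of the 9 thyroid hormone genes, 0 to 4 had enough counts for this comparison in a class, and no other of these was past 1.5-fold, against 4.23% of all genes on the lower side in the Dcn class. Fabp4, a fatty acid–binding protein related to Rbp7, was highest in the Plvap class at 2003 and 2126 CPM (0.09; 0.04 to 0.13), where Rbp7 was lower in GKO. Fabp5 was highest in the C1qb class, at 948 and 382 CPM (−1.31; −1.40 to −1.22).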

How the data were processed

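Single-cell RNA-Seq was done on 1 library per genotype, each of islets pooled from 4 mice. The authors mapped reads with Cell Ranger 5.0.1, as the matrix headers state, and the submitters' processing notes name the build mm10. The deposited values are UMI counts per gene and called barcode, without scaling; their removal of ambient RNA (CellBender) is not in these values. Gene positions are from the GENCODE annotation of GRCm38.

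Groups came from the genotype labels. Barcodes were kept at 500 genes and 10% mitochondrial UMIs, the study's limits, and classed by leading hormone or marker; C1qb and Krt19 were added as comparison classes. No doublet caller was run, and a single-class alternative removed mixed barcodes. UMIs were summed per class and scaled to CPM in Python 3.11.15 (scipy 1.17.1). Intervals are exact, Poisson for sums, conditional for ratios and Clopper-Pearson for shares. A ratio counted as past the fold at 1.5, against genes with at least 20 UMIs in each library and 20 CPM in 1. Total depth was 158067110 (WT) and 103511757 (GKO) UMIs, and counting error is the only error covered. Named genes were the 3 members, listed related genes at 100 CPM or more in 1 class of each library (some are not reported here), and the 5 genes most like each member among those at 50 CPM; other genes were named after their values were seen. Alternatives changed the filters, class limits, totals, scaling (edgeR 4.0.16 TMM, in R 4.3.3), weighting and thinning. The ratio script was tested on simulated data. The members and lists were chosen with earlier results of these data known.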

Additional observations from a re-analysis of the deposited data

Results flagged for a closer look

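Ttr in the somatostatin class had a GKO to WT log2 ratio of 0.46, whereas in the other 3 hormone classes its ratio was between −0.12 and −0.0070. In the Plvap class the Ttr ratio was −1.95, the lowest of the 9 classes for this gene. There, the WT barcode with the most Ttr held 825 of the 2135 UMIs. In barcodes with under 0.5% Gcg the Ttr ratio was −0.20 in the somatostatin class and 0.0010 in the Plvap class. Rbp4 in the insulin class had a ratio of 0.34, the highest of the 9 classes. In the Krt19 class it had a ratio of −5.17, from 228 and 6 UMIs, where Sst was at 3892 CPM in WT and 135 CPM in GKO. These differences between classes were not tested, since each genotype was 1 library.

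Barcodes that fell in no class were outside the comparisons above, and their summed Ttr and Rbp4 levels were not low. Ttr was at 6246 CPM in the 335 unclassed barcodes of WT and at 5600 CPM in the 420 of GKO, with medians of 167 and 133 CPM and 95th percentiles of 32787 and 27988 CPM. Rbp4 was at 1667 CPM in WT and 1638 CPM in GKO in the same barcodes, with medians of 117 and 0 CPM. These barcodes had 7 Rbp7 UMIs in WT and 1 in GKO. Their leading hormone made up under 10% of UMIs, and hormone transcripts together made up 5.24% and 6.20% of their UMIs.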

How the results depend on the processing

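No paired analysis was possible because each genotype has 1 library and no ratio comes from a test. Values here are GKO to WT log2 ratios, and "moved" means a change beyond the counting interval. Limits: the ratios carry no replicate error; classes rest on hormone and marker counts that ambient RNA and mixed barcodes can enter; small classes (65 and 80 Krt19 barcodes) and Rbp7 outside the Plvap class had few UMIs. Rbp7 in the Plvap class kept its direction within −0.50 to −0.38 in all 12 alternatives, and Rbp4 kept its direction in the glucagon (0.19 to 0.24) and somatostatin (0.17 to 0.37) classes. In the insulin class Rbp4 also kept its direction (0.086 to 0.36) but moved in 6 of 13 alternatives. Without any filter on barcodes, Ttr moved in the insulin class to −0.13. With a leading hormone of at least 25%, Ttr moved to −0.21 (insulin), 0.37 (somatostatin) and −0.018 (PP), Rbp4 in the somatostatin class moved to 0.37, and Ttr in the Rgs5 class reversed to 0.60. With single-class barcodes, Ttr moved to −0.14 (insulin), −0.042 (glucagon), 0.79 (somatostatin, then past 1.5-fold) and −0.028 (PP), and Ttr reversed to 1.96 (Dcn) and 2.91 (Rgs5) and Rbp4 to 0.18 (Dcn) and 0.27 (C1qb). Over totals without hormone genes, Ttr moved to −0.19 (insulin) and −0.14 (PP), and over totals without ribosomal protein and mitochondrial genes to −0.028 (glucagon). Under TMM scaling, Ttr moved to −0.21 (insulin), −0.051 (glucagon) and −0.18 (PP), and Rbp4 to 0.19 (glucagon) and 0.17 (somatostatin). With barcodes weighted equally, Ttr moved to 0.26 (somatostatin) and −0.15 (PP), and with barcodes thinned to 5000 UMIs to 0.29 and −0.14, while Rbp4 in the glucagon class moved to 0.19. In barcodes under 0.5% Gcg (for Ttr) or Sst (for Rbp4), an alternative chosen after seeing the data, Ttr moved to −0.13 (insulin) and reversed to −0.20 (somatostatin), 0.11 (PP), 0.0010 (Plvap) and 0.17 (Dcn), and Rbp4 reversed to −0.090 (PP) and 0.084 (Dcn). Leaving out the barcode sequences found in both libraries, also chosen after seeing the data, reversed no ratio. Thinning to 2000 in place of 5000 UMIs lowered shares of barcodes with a UMI but kept 88.2% and 84.5% of insulin barcodes with Ttr, 99.5% and 99.7% of somatostatin barcodes with Rbp4 and 67.1% and 61.5% of Plvap barcodes with Rbp7 (WT and GKO). The cause of these changes was not tested.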

Other observations

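In 5 WT barcodes, all unclassed above, Ghrl made up at least 10% of UMIs (16.4% to 40.9%), and no GKO barcode reached that limit. This group was chosen after the data had been seen, and it is described by its values only. Ttr was at 9180 to 31111 CPM in the 5 barcodes and Rbp4 at 6692 to 20219 CPM, while none had an Rbp7 UMI. Every value of Ttr lay above the 5th percentile of WT glucagon barcodes (6136 CPM), but only the highest lay above their median (22945 CPM). Every value of Rbp4 lay above the median WT somatostatin barcode (4946 CPM). Gcg made up 0.010% to 0.034% of UMIs in the 5 barcodes. Sst made up 0.0079% to 0.056% in 4 of them and 9.09% in the other, where Ppy made up 3.78%. Ghrelin barcodes thus had both Ttr and Rbp4 at high levels with few transcripts of the hormones of the classes in which these genes were highest, with 1 exception for Sst.

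Among listed genes past 1.5-fold, Fabp5 was lower in GKO in the glucagon class, at 29.4 CPM in WT and 14.0 CPM in GKO, and higher in the Dcn class, at 43.9 and 97.4 CPM. Aldh1a2, an enzyme of retinoic acid synthesis, was higher in the Dcn class, at 20.8 and 39.0 CPM, and Aldh1a1 in the Rgs5 class, at 27.5 and 58.2 CPM. Of all genes compared, 1.14% were past 1.5-fold on the lower side in the glucagon class. On the higher side, 5.81% were in the Dcn class and 4.37% in the Rgs5 class. These genes were picked after their values were seen. Other listed genes were also past 1.5-fold in some classes, among them Fabp4, Adh1 and Rdh14.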
